A study of Mus musculus with 126 samples.

Results

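Glypicans and syndecans are the membrane-bound heparan sulphate proteoglycans of animal cells. The genes described here are the 5 glypicans Gpc1, Gpc2, Gpc3, Gpc4 and Gpc6 and the 4 syndecans Sdc1, Sdc2, Sdc3 and Sdc4, which are 9 of the 48490 gene identifiers in the deposited table. They were chosen by gene symbol, and the choice was made with the FPKM of Gpc4 in the mutant cells known to be lower, so the Gpc4 values below are a description. Gpc5, the remaining glypican gene of the mouse, is given where a value for it helps.

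The study took single cells from the endolymphatic sac, the blind-ended part of the inner ear epithelium that handles endolymph, of mouse embryos at E14.5, the age in days after conception. Each cell was prepared by Smart-seq2, a plate protocol for full-length transcripts that uses no molecular identifiers. By the labels 33 cells came from wild-type animals and 93 from animals carrying 1 Y440X allele of the transcription factor gene Sox9, written Sox9 Y440X/+ and called mutant below. No strain, treatment, animal, litter or sex is given, so each genotype counts as 1 sample, intervals and SDs describe cells, and no test between groups was possible.

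A glypican is tied to the outer membrane by a glycolipid anchor, and a syndecan crosses the membrane and carries a short cytoplasmic tail. Both bear heparan sulphate chains, which bind Wnt, Hedgehog, BMP and FGF ligands and matrix proteins and so alter how these reach their receptors. The chains are polymerised by the Ext1 and Ext2 enzymes, then sulphated, and the core proteins can be shed from the cell by lipases and proteases.

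The members were compared in cells with Epcam, an adhesion molecule of epithelium, at 1 FPKM or more, where FPKM gives the fragments of a transcript per kilobase, scaled to all mapped fragments. This kept 32 wild-type and 81 mutant cells, or 113 of 126. The cut fell in a gap, since the lowest Epcam value inside it was 53.1 FPKM and the 13 cells outside it were all listed at 0. All 9 epithelial marker genes were detected in at least 10% of the kept cells of either genotype. At least 3 of the 9 mesenchyme markers were detected in 2 of the 32 wild-type against 2 of the 81 mutant cells. Within these cells, Aldh1a1 or Aldh1a3, which encode retinoic acid synthesising enzymes, was at 1 FPKM or more and above the other in most. Aldh1a1 was dominant in 14 wild-type and 41 mutant cells and Aldh1a3 in 16 and 35, and the other 2 and 5 cells had neither. A dominant value was less than 2-fold above the other in 1 cell of each genotype.

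A gene below 1 FPKM in a cell is called not detected, because a transcript that was not captured also gives 0. The mutant Epcam cells listed fewer genes above 0, with a median of 4453 (2035 to 9358), than the wild-type cells, with a median of 5244 (2189 to 6493). The read depth is unknown. Differences are therefore given as relative differences, which are differences in mean log2(FPKM + 1) less the median difference of all genes detected in at least 50% of the cells of either group. Between the genotypes this median was -0.46, so a gene near 0 in both groups has a relative difference above 0. A gene was counted as higher or lower when its relative difference reached 1 log2 unit and it was detected in at least 10% of the cells compared.

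In the wild-type Epcam cells, Gpc4 and Sdc4 were the members found in nearly every cell, and Gpc4 had the highest mean level of the 9. By mean log2(FPKM + 1), a scale corrected for transcript length, the order was Gpc4, Sdc4, Gpc3, Sdc2, Sdc1, Gpc6, Gpc1, Gpc2 and Sdc3. Each neighbouring pair in this order differed by less than the SD over cells. Gpc4 had the highest FPKM of the 9 members in 16 of 32 cells (50%, exact 95% interval 31.9 to 68.1%), Gpc3 in 8 and Sdc4 in 4. All 32 cells had at least 1 glypican and at least 1 syndecan.

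In the mutant Epcam cells the order was Sdc4, Sdc2, Gpc4, Gpc3, Sdc1, Gpc6, Gpc1, Sdc3 and Gpc2, again with neighbours closer than the SD over cells. Sdc4 was the highest member in 27 of 81 cells (33.3%, 23.2 to 44.7%), Gpc3 in 17, Sdc2 in 14 and Gpc4 in 13 (16.05%, 8.83 to 25.9%). At least 1 glypican was detected in 63 of 81 cells (77.8%, 67.2 to 86.3%) and at least 1 syndecan in 78 (96.3%, 89.6 to 99.2%). In 1 mutant cell none of the 9 members was detected.

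Gpc4 encodes glypican 4, which modulates Wnt and FGF signals in vertebrate development. It lies on the X chromosome at 52053021 to 52165252 of mm10, minus strand (ENSMUSG00000031119.4), and overlaps no other annotated gene. Gpc4 was found in 31 of 32 wild-type cells (96.9%, 83.8 to 99.9%) against 44 of 81 mutant cells (54.3%, 42.9 to 65.4%). Its lowest, median and highest values were 0, 82.03 and 463 FPKM in wild-type cells and 0, 8.95 and 274 FPKM in mutant cells. The 2 ranges overlapped, but the mutant cells were spread from no detection to wild-type levels whereas the wild-type cells lay mostly high. A level of 50 FPKM or more was reached by 23 of 32 wild-type against 23 of 81 mutant cells, and one of 100 FPKM or more by 12 and 6. Mean log2(FPKM + 1) stood at 6.03 ± 1.66 in the 32 wild-type and 2.93 ± 2.90 in the 81 mutant cells (SD over cells), which gave a relative difference of -2.64. This was the 13th lowest among the 9761 genes compared.

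Keeping only cells with detected Gpc4 drops the lowest values, which by itself narrows the groups. Among the cells in which Gpc4 was detected, the mean log2 levels were 6.23 ± 1.27 (SD over 31 wild-type cells) and 5.39 ± 1.44 (SD over 44 mutant cells). The call between detected and not detected was clear-cut in the mutant cells, since the lowest detected value was 2.06 FPKM and the highest value under the threshold was 0.0766 FPKM. Among cells with 3000 to 5000 listed genes, Gpc4 was found in 12 of 12 wild-type against 27 of 53 mutant cells (50.9%, 36.8 to 64.9%), with a relative difference of -3.02.

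**Figure D1:**
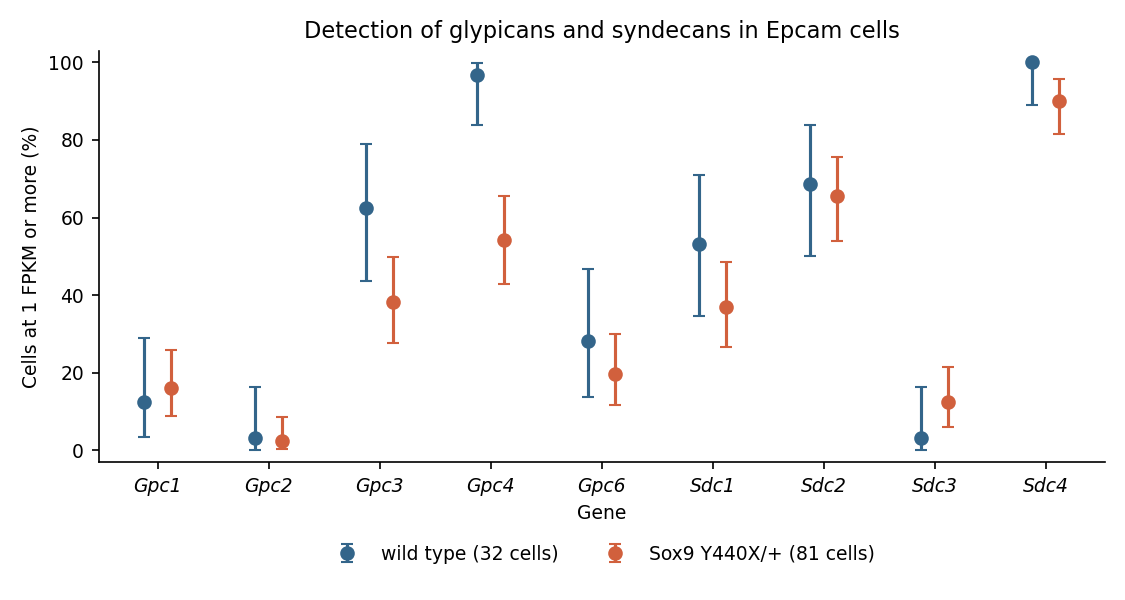
Share of Epcam cells with each gene at 1 FPKM or more, in percent, for 32 wild-type and 81 Sox9 Y440X/+ cells. Points are shares and bars exact 95% binomial intervals, which cover counting error only. For Gpc4 the intervals are 83.8 to 99.9% in wild-type and 42.9 to 65.4% in mutant cells.

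Gpc4 was the 1 member counted as lower in the mutant Epcam cells, where 2.83% of all genes compared were counted as lower. No member was counted as higher, where 6.46% of all genes were. Of the 9 members, 7 were detected in at least 10% of the cells and could be counted. Gpc2 and Sdc3 were not. The median relative difference of these 7 was 0.07, beside 0.29 over all genes compared. Before the shift was subtracted, 7 of the 9 members had a lower mean log2 level in mutant cells, and Gpc1 and Sdc3 a higher one.

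Gpc3 encodes glypican 3, a growth-restraining proteoglycan whose loss causes an overgrowth syndrome in humans. It is the neighbour of Gpc4 on the X chromosome (52272426 to 52613950, minus strand), 107173 bases away. It was found in 20 of 32 wild-type cells (62.5%, 43.7 to 78.9%) against 31 of 81 mutant cells (38.3%, 27.7 to 49.7%). Its lowest, median and highest values were 0, 37.7 and 393 FPKM in wild-type cells and 0, 0 and 412 FPKM in mutant cells. Where detected, Gpc3 was as high in mutant as in wild-type cells, with mean log2 levels of 6.16 ± 1.61 (SD over 31 cells) and 5.82 ± 1.40 (SD over 20 cells). Over all cells the means were 3.63 ± 3.06 and 2.37 ± 3.16, which gave a relative difference of -0.80, short of the 1 log2 unit. It reached -1.01 after each cell was rescaled to 1000000 and -1.28 with a pseudocount of 0.1, and was 0.04 among cells with 3000 to 5000 listed genes and 0.03 on the log2 of mean FPKM. Both X-linked glypicans were present in 20 of 32 wild-type cells against 18 of 81 mutant cells, and neither was detected in 1 and 24 cells.

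Sdc4 encodes syndecan 4, the syndecan of focal adhesions (chromosome 2, 164424247 to 164443887). It was detected in all 32 wild-type cells (exact interval 89.1 to 100%) against 73 of 81 mutant cells (90.1%, 81.5 to 95.6%). Its lowest, median and highest values were 1.52, 42.9 and 296 FPKM in wild-type and 0, 36.8 and 362 FPKM in mutant cells, and these ranges nearly coincided. The mean log2 level was 5.11 ± 1.64 and 4.90 ± 2.10, a relative difference of 0.25.

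Sdc2, whose protein is prominent in mesenchyme, lies on chromosome 15 (32920723 to 33034730), and Sdc1, the main syndecan of epithelia, on chromosome 12 (8771323 to 8793715). Sdc2 was found in 22 of 32 wild-type cells (68.8%) against 53 of 81 mutant cells (65.4%), with a highest value of 140 and 152 FPKM and a relative difference of 0.34. Sdc1 was found in 17 wild-type cells (53.1%, 34.7 to 70.9%) and 30 mutant cells (37.04%, 26.6 to 48.5%). Its median was 5.91 FPKM and 0, with a relative difference of -0.43. Neither syndecan was counted as higher or lower.

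Gpc6, a glypican needed for skeletal growth in humans (chromosome 14, 116925297 to 117979529), was found in 9 of 32 wild-type cells (28.1%) against 16 of 81 mutant cells (19.8%), at a relative difference of 0.07. Gpc1, known from the nervous system and vasculature (chromosome 1, 92831645 to 92860779), was detected in 4 and 13 cells (12.5% and 16.05%), with a relative difference of 0.62. Both were thus found in a minority of cells of either genotype. Gpc1 overlaps the protein-coding gene Ankmy1, and since the counting is not stated to use strand, its values are uncertain.

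The scarcest members were Gpc2, Sdc3 and, outside the 9, Gpc5. Gpc2 (chromosome 5, 138273655 to 138280005) was found in 1 wild-type and 2 mutant cells. It shares its locus with a coding gene model on the same strand, so its reads may be split. Sdc3, the syndecan of neural tissue (chromosome 4, 130792537 to 130826319), was found in 1 of 32 wild-type cells (3.12%, 0.0791 to 16.2%) against 10 of 81 mutant cells (12.3%, 6.08 to 21.5%). Gpc5 was detected in 1 cell of each genotype.

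**Figure D2:**
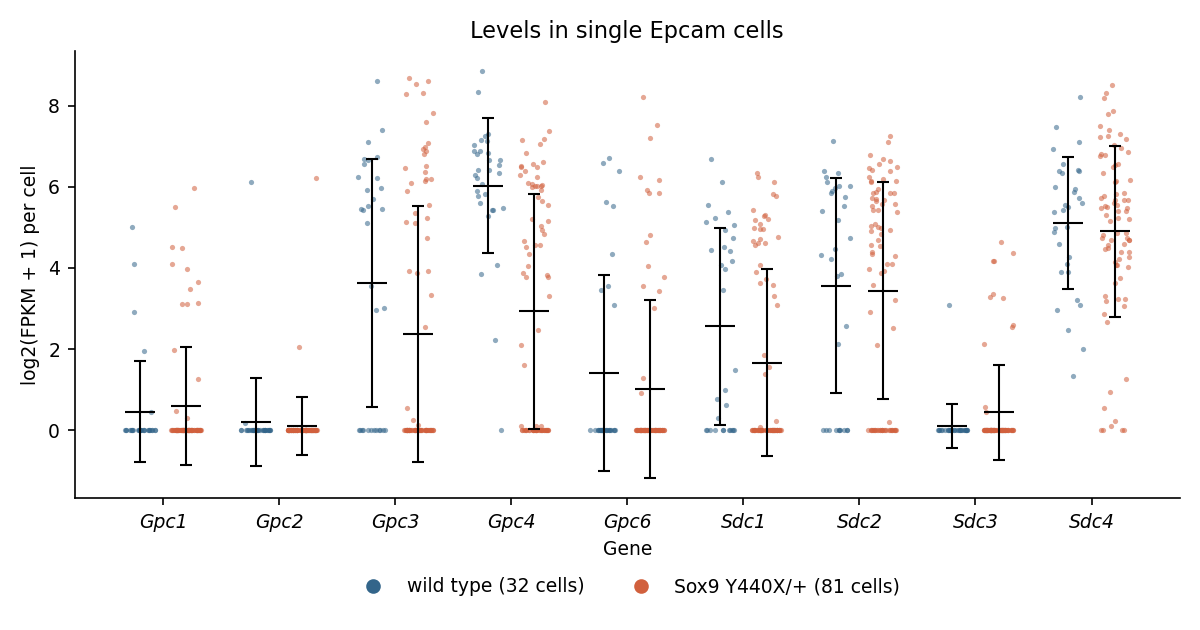
Level of each gene in single Epcam cells as log2(FPKM + 1), for 32 wild-type and 81 Sox9 Y440X/+ cells. Each point is 1 cell, the horizontal line is the mean and the bar 1 SD over cells. Gpc4 averages 6.03 ± 1.66 in wild-type and 2.93 ± 2.90 in mutant cells, many of them at 0, and Sdc4 5.11 ± 1.64 and 4.90 ± 2.10.

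Levels were also summed over each family. The summed FPKM of the 5 glypicans had a median of 118 (38.1 to 531) in wild-type and 64.3 (0 to 520) in mutant Epcam cells. Without Gpc4, the glypican sum had a median of 52.03 FPKM in wild-type and 13.2 FPKM in mutant cells. Its means of 68.7 ± 78.9 and 62.5 ± 107 FPKM (SD over cells) lay closer than these medians. At least 1 glypican other than Gpc4 was detected in 24 of 32 wild-type cells (75%) against 42 of 81 mutant cells (51.9%). In the Aldh1a3 dominant cells the sum with Gpc4 had a median of 113 FPKM in wild-type and 78.6 FPKM in mutant cells. Its mean there was 150.2 ± 118 and 144 ± 147 FPKM. In the Aldh1a1 dominant cells its medians were 118 and 46.1 FPKM and its means 143 ± 74.9 and 52.8 ± 56.8 FPKM. The summed FPKM of the 4 syndecans had a median of 91.8 (1.52 to 350) and 85.3 (0 to 471). The number of members detected per cell had a median of 4.5 in wild-type and 3 in mutant cells.

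Several other values moved with genotype, and their part in these differences was not tested. All 32 wild-type but 35 of the 81 mutant Epcam cells had detected Oc90, the gene of an otoconial matrix protein, and 26 and 10 had detected Sox10, a transcription factor gene. A Y-linked transcript was present in 31 of the 32 wild-type Epcam cells against 4 of the 81 mutant ones. Xist, the RNA of the inactive X chromosome, was present in 0 and 71 cells. The sex of the embryos and the genotype therefore cannot be told apart for the X-linked Gpc3 and Gpc4. Of the 4 mutant cells in which one was present, Gpc4 was detected in 3, and without these cells it was detected in 41 of 77 (53.2%). An undefined title prefix is shared by every mutant cell and 1 wild-type cell, and the other wild-type cells lack it. That 1 wild-type cell had Gpc4 at 58.5 FPKM. The summed level of 7 neural crest, glia and melanocyte markers had a median of 36.8 FPKM (0 to 302) in wild-type and 4.88 FPKM (0 to 140) in mutant cells. In all, 3 and 2 of the 7 were detected in at least 10% of cells, and Foxd3 of that list was at 0 in both genotypes.

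Gpc4 was counted as lower in the mutant cells of both dominance classes, and Gpc3 as lower in those of the Aldh1a1 dominant class. In the Aldh1a1 dominant cells, Gpc4 was found in 14 of 14 wild-type cells (76.8 to 100%) against 22 of 41 mutant cells (53.7%, 37.4 to 69.3%). The 14 wild-type values lay between 38.1 and 150.5 FPKM with a median of 87.8, and the mutant values between 0 and 165 FPKM with a median of 8.95. The wild-type cells thus formed a narrow band, with a mean log2 level of 6.35 ± 0.65 (SD over 14 cells), inside the broad range of the mutant cells, 2.94 ± 2.90 (SD over 41 cells). The relative difference was -2.86.

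Gpc3 was found in 9 of 14 wild-type (64.3%, 35.1 to 87.2%) against 10 of 41 mutant Aldh1a1 dominant cells (24.4%, 12.4 to 40.3%), with a relative difference of -1.83. This fell short of 1 log2 unit with a pseudocount of 10, at -0.93. Gpc1 was listed at 0 in all 14 wild-type cells, a count that still allows a share of 21.4%, and detected in 6 of 41 mutant cells (14.6%, 5.57 to 29.2%). It was the 1 member counted as higher, and no size is given because a group stood at 0. Gpc1 passed the 10% cut only through the mutant cells and could not have been counted as lower. The median difference subtracted here was -0.55, which raised every relative difference in this comparison. Among all genes in this comparison, 4.14% were counted as lower and 15.3% as higher, so the single higher member stands near the background. Sdc1 was found in 11 of 14 wild-type against 21 of 41 mutant cells (78.6% and 51.2%), a relative difference of -0.75. Sdc4 was detected in all 14 and all 41 cells.

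In the Aldh1a3 dominant cells, Gpc4 was found in 15 of 16 wild-type cells (93.8%, 69.8 to 99.8%) against 20 of 35 mutant cells (57.1%, 39.4 to 73.7%). The values ran from 0 to 158 FPKM with a median of 65.95 in wild-type cells and from 0 to 274 FPKM with a median of 12.7 in mutant cells, so the groups overlapped more than in the other class. The relative difference was -1.86, and -0.78 on the log2 of mean FPKM. Gpc4 was the 1 member counted as lower, with 6.35% of all genes lower and 15.3% higher. Gpc3 was detected in 10 of 16 and 19 of 35 cells (62.5% and 54.3%), a relative difference of 0.49, and 2.03 among the cells with 3000 to 5000 listed genes (8 wild-type and 26 mutant). Sdc4 was detected in 16 of 16 and 28 of 35 cells (80%, 63.1 to 91.6%), a relative difference of 0.16. Whether the genotype difference of any member differs between the classes was not tested.

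**Figure D3:**
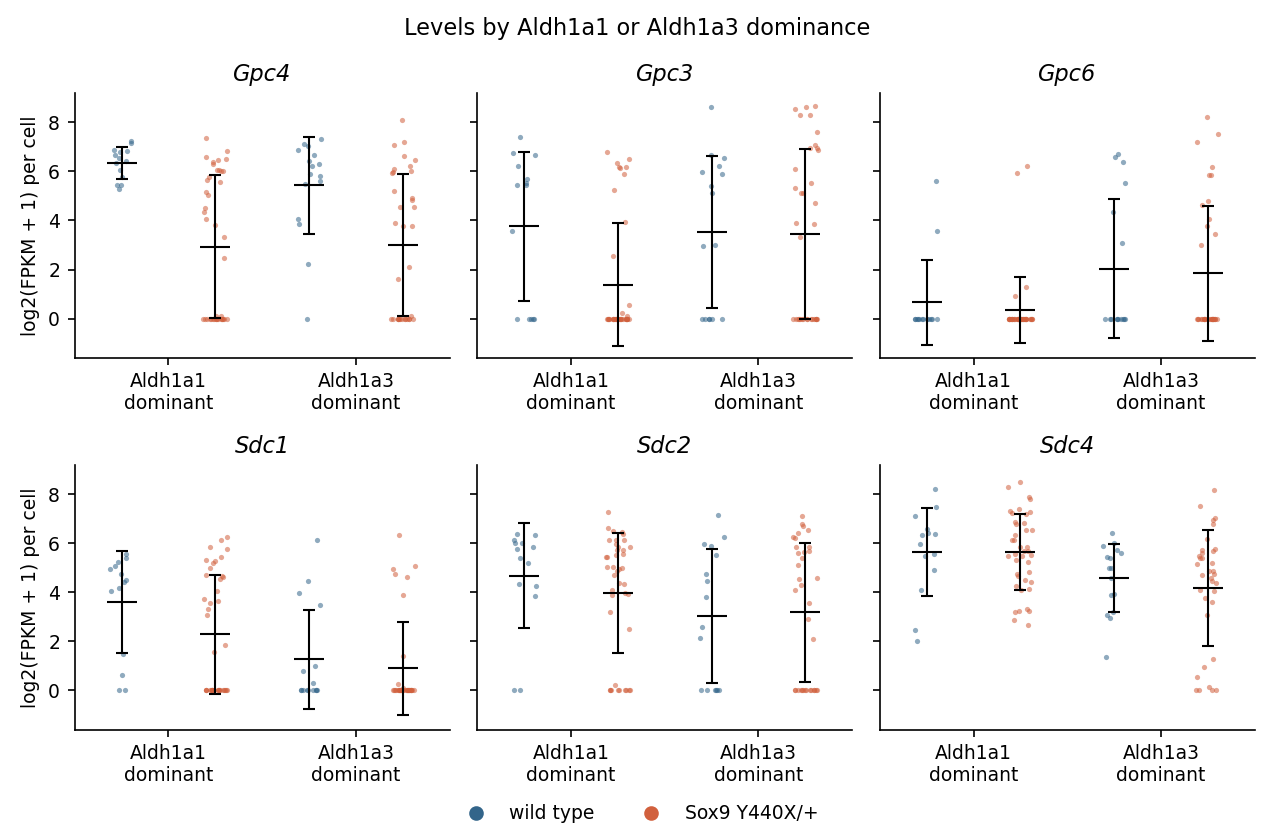
Levels of 6 members as log2(FPKM + 1) in Aldh1a1 dominant (14 wild-type, 41 Sox9 Y440X/+) and Aldh1a3 dominant (16 and 35) Epcam cells. Each point is 1 cell, lines are means and bars 1 SD over cells. The wild-type Aldh1a1 dominant cells form a narrow Gpc4 band at 6.35 ± 0.65, and Gpc3 is scarce in the mutant Aldh1a1 dominant cells (10 of 41 detected).

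Between the classes, Sdc1 was higher in Aldh1a1 dominant cells and Gpc6 in Aldh1a3 dominant cells, in either genotype. Sdc1 was detected in 11 of 14 Aldh1a1 dominant (78.6%, 49.2 to 95.3%) and 4 of 16 Aldh1a3 dominant wild-type cells (25%, 7.27 to 52.4%). In mutant cells the shares were 21 of 41 (51.2%, 35.1 to 67.1%) and 7 of 35 (20%, 8.44 to 36.9%). The relative difference, Aldh1a1 minus Aldh1a3 dominant, was 2.02 for the wild-type and 1.04 for the mutant cells. Gpc6 showed the opposite order. It was detected in 2 of 14 and 6 of 16 wild-type cells (14.3% and 37.5%) and in 3 of 41 against 12 of 35 mutant cells (7.32% and 34.3%), with relative differences of -1.69 and -1.83. With a pseudocount of 10 the values of Sdc1 were 0.83 and 0.43 and those of Gpc6 -0.78 and -0.80, all short of 1 log2 unit. Among cells with 3000 to 5000 listed genes, Gpc6 stood at -0.01 in wild-type cells, of which 3 and 8 remained, and Sdc1 at 0.93 in mutant cells. The Aldh1a1 dominant cells also listed more genes, with medians of 5664 against 4958.5 in wild-type and 4730 against 4268 in mutant cells, and held 3 of 14 and 7 of 41 cells with at least 3 mitochondria-rich cell markers, against 0 of 16 and 1 of 35. The part of these in the class differences was not tested.

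In the wild-type cells, Sdc2 was also counted as higher in the Aldh1a1 dominant class, where it was detected in 12 of 14 cells against 10 of 16 (85.7% and 62.5%, relative difference 1.34). This was 0.69 with a pseudocount of 10 and 0.53 on the log2 of mean FPKM. Gpc1 was counted as lower there, being listed at 0 in all 14 Aldh1a1 dominant cells and detected in 4 of 16 Aldh1a3 dominant ones. It passed the 10% cut only through the Aldh1a3 dominant cells and could not have been counted as higher. Without the single wild-type cell of the mutant title prefix, Gpc1 was no longer past 1 log2 unit. Thus 2 members were higher and 2 lower, beside 8.53% and 16% of all genes. Gpc4 differed little between the wild-type classes, with a relative difference of 0.61.

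In the mutant cells, Sdc4 was counted as higher in the Aldh1a1 dominant class (41 of 41 cells against 28 of 35, relative difference 1.12) and Gpc3 as lower (10 of 41 against 19 of 35, relative difference -2.41). Sdc4 was short of 1 log2 unit without cells above 6000 listed genes (0.95), on the log2 of mean FPKM (0.89) and with a pseudocount of 10 (0.73). Together with Sdc1 and Gpc6, 2 members were higher and 2 lower, beside 5.59% and 9.06% of all genes. In the wild-type cells the Gpc3 value was -0.07, but 2.22 among the 3 and 8 cells with 3000 to 5000 listed genes and 0.44 without cells above 6000. Whether the class difference differs between the genotypes was not tested. Gpc4 was detected at nearly the same share in the mutant classes, 53.7% and 57.1%, with a relative difference of -0.40.

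The 37 mutant Epcam cells without detected Gpc4 were set beside the 44 with it to see whether other members were higher where Gpc4 was missing. Of the 8 other members, Gpc6 was counted as higher, 6 lay within 1 log2 unit and Gpc2 was too scarce to be counted. The number of other members detected per cell had a median of 3 in each, with a mean of 2.70 ± 1.47 (SD over 37 cells) without Gpc4 and 2.91 ± 1.18 (SD over 44 cells) with it. At least 1 other glypican was detected in 19 of 37 cells without Gpc4 (51.4%, 34.4 to 68.1%) and in 23 of 44 cells with it (52.3%, 36.7 to 67.5%). At least 1 syndecan was detected in 35 of 37 and 43 of 44 cells.

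Gpc6 was the 1 of the 8 other members counted as higher in the cells without Gpc4, with 2.88% of all genes counted as higher and 2.48% as lower. It was detected in 10 of 37 cells without Gpc4 (27.03%, 13.8 to 44.1%) and 6 of 44 with it (13.6%, 5.17 to 27.4%), and these intervals overlapped. Its highest value was 298 FPKM without Gpc4 and 185 FPKM with it, and its median was 0 in both. The mean log2 level was 1.48 ± 2.60 and 0.63 ± 1.71, a relative difference of 1.16, which was 0.54 with a pseudocount of 10. Before the median difference of all genes was subtracted, the Gpc6 difference was 0.85, short of 1 log2 unit. At least 3 mitochondria-rich cell markers were detected in 2 of the 37 cells without Gpc4 and 7 of the 44 with it, and without those cells the Gpc6 value was 1.08 (35 and 37 cells), an alternative chosen after seeing the data. In the Aldh1a3 dominant mutant cells it was detected in 6 of 15 without and 6 of 20 with Gpc4 (relative difference 1.37). There it was the 1 member counted as higher and none was lower, beside 9.57% and 7.64% of all genes. In the Aldh1a1 dominant mutant cells it was detected in 3 of 19 and 0 of 22 and could not be counted, and no member was higher or lower, beside 7.92% and 5.22% of all genes. The single wild-type Epcam cell without Gpc4 also had Gpc6 detected, at 6.60 on the log2(FPKM + 1) scale, with Sdc2 and Sdc4 as its other detected members.

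The relative differences of the remaining members were small. They were 0.17 for Gpc3, 0.18 for Gpc1, 0.17 for Sdc1, -0.09 for Sdc2, 0.35 for Sdc3 and 0.12 for Sdc4. The median difference subtracted here was -0.31, which raised each of these values. Before it was subtracted, 6 of the 8 other members had a lower mean log2 level in the cells without Gpc4. Gpc6 and Sdc3 had a higher one. Gpc3 was detected in 13 of 37 cells without Gpc4 (35.1%) and 18 of 44 with it (40.9%). Sdc2 was detected in 21 of 37 (56.8%, 39.5 to 72.9%) and 32 of 44 (72.7%, 57.2 to 85.04%). Gpc2 was listed at 0 in all 37 cells without Gpc4, a count that still allows a share of 8.11%.

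**Figure D4:**
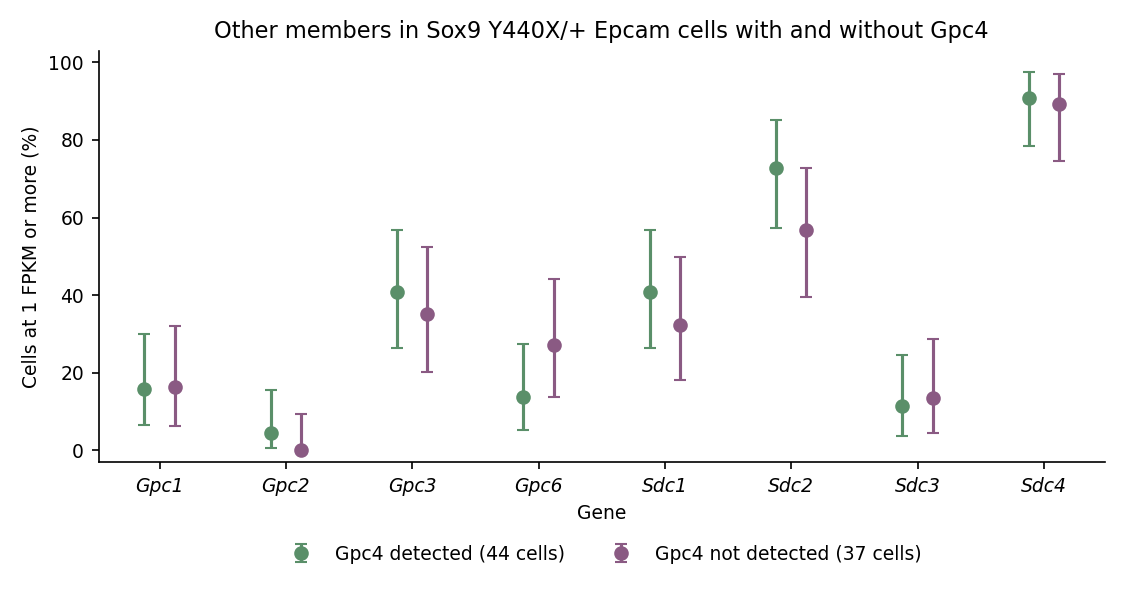
Share of Sox9 Y440X/+ Epcam cells with each other member at 1 FPKM or more, in percent, for the 44 cells with and the 37 cells without detected Gpc4. Points are shares and bars exact 95% binomial intervals, covering counting error only. Gpc6 is at 13.6% in cells with and 27.03% in cells without Gpc4, with overlapping intervals.

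The summed FPKM of the other glypicans had a median of 14.7 without Gpc4 and 9.0 with it, and with Gpc4 included the glypican sum was 14.7 and 83.2. The syndecan sum had a median of 83.2 and 86.5 FPKM. The summed FPKM of all 8 other members had a median of 159 (0 to 556) and 109 (12.5 to 489). Its mean was 185 ± 146 and 155 ± 119 (SD over cells), and the difference was not tested. The cells without Gpc4 listed fewer genes, with a median of 4056 against 4713.5, and the part of this in the comparison was not tested. Among cells with 3000 to 5000 listed genes, Gpc6 was again the 1 member counted as higher, in 8 of 26 without and 4 of 27 with Gpc4 (relative difference 1.04), and none was lower, beside 4.59% and 5.6% of all genes.

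The likeness of Gpc4 to the 4 members detected in at least 25% of the cells of each genotype was computed across cells, and not for Gpc1, Gpc2, Gpc6 and Sdc3. Spearman's rho of Gpc4 over the 32 wild-type and 81 mutant cells was 0.29 and 0.04 with Gpc3, 0.37 and 0.05 with Sdc1, 0.10 and 0.00 with Sdc2, and 0.09 and 0.16 with Sdc4. With the number of listed genes it was -0.13 and 0.28. Of 4718 genes detected in at least 25% of the cells of each genotype, the 5 closest to Gpc4 by mean rho were Gyltl1b (0.47 and 0.36), Bfar (0.48 and 0.26), Atat1 (0.45 and 0.19), Eif3a (0.47 and 0.17) and Nfu1 (0.39 and 0.24). Sdc1 ranked 119th and Gpc3 331st in this order, Sdc4 641st and Sdc2 1635th. These values describe cells whose grouping into library preparations is not given, and they are low for sparse data.

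Gpc4 was detected in 24 of the 35 mutant Epcam cells with Oc90 (68.6%), and in 20 of the 46 without (43.5%), a difference that was not tested. It was detected in 7 of the 10 mutant cells with Sox10 and 37 of the 71 without (52.1%).

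Mitochondria-rich cells are the acid-secreting cells of this epithelium. In the cells with at least 3 of their 10 markers, Sdc4 had a mean log2 level of 7.61 ± 0.56 (SD over 3 wild-type cells) and 6.54 ± 0.61 (SD over 9 mutant cells). Gpc4 was detected in 3 of 3 and 7 of 9 of them, and Gpc1, Gpc2 and Gpc6 in none. Of the 12 mutant cells without Epcam, 9 had at least 3 mesenchyme markers. Gpc4 was detected in 0 of these 12, a count that still allows a share of 25%, whereas Gpc3 was detected in 5, at a median of 212 FPKM where detected. Sdc4 and Sdc1 were each detected in 5 of the 12 and Sdc2 in 2.

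The genes that build, trim and read heparan sulphate were described in 6 lists. Of the 11 chain assembly genes, 7 could be counted between the genotypes and none was higher or lower, beside 6.46% and 2.83% of all genes. Their median relative difference was 0.11, beside 0.29 over all genes. Ext2, a subunit of the chain polymerase, was the lowest at -0.89 (detection 93.8% in wild-type, 77.8% in mutant Epcam cells), and Extl3, which starts the chain, the highest at 0.49. Of the 16 modification genes, 6 could be counted and 1 was higher, beside 6.46% of all genes. This was the sulphotransferase gene Hs3st1 at 1.17 (6.25% and 17.3%), while the epimerase gene Glce was lowest at 0.04.

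In the list of removal and shedding genes, 6 of 11 could be counted, 3 were higher and none lower, beside 6.46% and 2.83% of all genes. The median was 1.01, beside 0.29 over all genes. These were Notum, Sulf1 and Adam10. Notum encodes a secreted Wnt deacylase that has also been described to release glypicans, with log2 levels of 1.93 ± 2.63 in wild-type and 3.03 ± 3.21 in mutant cells (SD over cells, relative difference 1.57). Sulf1, which encodes a sulphatase that trims heparan sulphate at the cell surface, was detected in 9.38% and 29.6% of cells (relative difference 1.52). Adam10, a protease gene whose product sheds many membrane proteins, was detected in 50% and 65.4% (relative difference 1.45). Before the shift was subtracted, the differences were 1.10 for Notum, 1.06 for Sulf1 and 0.98 for Adam10. Sulf2 was the lowest of the list at -0.02.

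Of the 7 syndecan tail partners, 4 could be counted, with a median of 0.75, beside 0.29 over all genes. Ezr, which links membrane proteins to actin, was the 1 gene counted as higher, at 1.18, beside 6.46% of all genes. Its difference was 0.71 before the shift was subtracted. Cask, a scaffold of the cell cortex, was lowest at -0.38, and none was counted as lower, beside 2.83% of all genes. All 3 secreted heparan sulphate proteoglycans could be counted and none was higher or lower, beside 6.46% and 2.83% of all genes. Their median was -0.30. Hspg2, which encodes perlecan, stood at -0.07 and Col18a1 at -0.48. The last list of 22 genes held Wnt, FGF and Hedgehog receptors, Met, integrin subunits and tetraspanins. Of these genes, 14 could be counted and none was higher or lower, beside 6.46% and 2.83% of all genes. Their median was 0.31, beside 0.29 over all genes. The laminin receptor subunit Itga6 was highest at 0.83 and the tetraspanin gene Cd81 lowest at -0.41.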

How the data were processed

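Per the labels, single cells of the endolymphatic sac at E14.5 were prepared by Smart-seq2. The authors deposited 1 table of FPKM values with 48555 rows. Build mm10 and the tools Cufflinks, HTSeq, HISAT2 and SAMtools 0.1.18 come from the submitters' processing notes, which give them no role. The annotation release and the strand setting were not given in the sources used here. Rows of the 49 repeated identifiers were summed. FPKM keeps no read number, so depth is unknown. Genes listed above 0 stood in for it. No cell was removed beyond the Epcam cut, no columns held identical values, and no doublet caller was run.

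Means and SDs were computed on log2(FPKM + 1) with pandas 2.3.3, numpy 2.4.6 and Python 3.11.15, and exact Clopper-Pearson 95% intervals with scipy 1.17.1. For a count of 0 the limit is 3 counts of the total. Both cover counting error only. The comparison was tested on simulated data. Named genes were all 9 members, Gpc5, the highest and lowest countable gene of each list and the 5 genes closest to Gpc4 by Spearman's rho. The members, lists and comparisons were chosen with earlier results of these data known. Genes named beyond this rule were chosen after their values were seen. Alternatives changed the detection threshold, pseudocount, scaling, filters and cells. Promoter and protein sequences are not used here.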

Additional observations from a re-analysis of the deposited data

How the results depend on the processing

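Gpc4 kept its sign and stayed past 1 log2 unit between the genotypes in Epcam cells under the 11 alternatives that changed its value, with a range of -3.77 to -1.34. Leaving out the low-value filter and requiring Epcam at 5 FPKM could not change it. Among cells with 3000 to 5000 listed genes it was detected in 100% of wild-type cells.

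The share of all genes past 1 log2 unit was not computed for the settings listed from here on, so these counts of members lack a background. That share can move with the setting. Among Epcam cells with 3000 to 5000 listed genes, 18.3% of all genes were higher and 5.59% lower in the mutant cells. In all Epcam cells the shares were 6.46% and 2.83%. Counts of members past 1 log2 unit between the genotypes moved as follows. In Epcam cells 2 were lower with a pseudocount of 0.1 or with cells rescaled to 1000000. In Aldh1a1 dominant cells, 2 were higher with a pseudocount of 0.1, with rescaling and on the log2 of mean FPKM, 0 were higher with median-ratio scaling, and 1 was lower and 0 higher with a pseudocount of 10. With 3000 to 5000 listed genes, 4 were lower and 2 higher there, where 3 wild-type cells remained. In Aldh1a3 dominant cells, 1 was higher with a pseudocount of 0.1, with 3000 to 5000 listed genes and without cells above 6000 listed genes, and 0 were lower on the log2 of mean FPKM.

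Between the classes, a pseudocount of 10 left 0 higher and 0 lower in wild-type cells and 0 higher and 1 lower in mutant cells. With 3000 to 5000 listed genes 4 were higher and 1 lower in wild-type cells and 1 higher in mutant cells. In mutant cells 1 was higher on the log2 of mean FPKM and without cells above 6000 listed genes. Without the wild-type cell of the mutant title prefix, 1 was lower in wild-type cells. For the cells without Gpc4, 0 were higher with a pseudocount of 10. The cause was not tested. No paired analysis was possible because single cells were labelled without replicate numbers shared by the genotypes. The precision is limited by 32 wild-type cells, by unknown read depth and by 1 sample per genotype.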
